A study of Mnemiopsis leidyi with 31 samples.

Results

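The transcripts described here are 200 records of the comb jelly Mnemiopsis leidyi, out of 31067 in the transcript set, that were present at 1 hour post fertilization (hpf), kept their level at 4 and 5 hpf, and were lower from 6 hpf onward. They were chosen by measured values: CPM, a record's count per 1000000 counts of its library, in 14 of the 19 libraries whose codes begin with 2013. A record qualified with 20 to 1000 CPM in both 1 hpf libraries of 2013, a mean at 4 and 5 hpf of 0.75 to 1.5 times the 1 hpf mean, and means at 6 and 7 hpf and at 8 and 9 hpf of at most 0.5 times it. Of the 4697 records in that range of CPM at 1 hpf, 3426 held their level at 4 and 5 hpf, and 240 of those also met the limits on the fall. The 200 with the lowest sum of the later means over the 1 hpf mean are the members, and the 3226 other records that held their level at 4 and 5 hpf (the other held transcripts) serve as their comparison. The levels in those 14 libraries are therefore a description. The 12 libraries coded 2012 and the 5 libraries of 2013 at 2 and 3 hpf took no part in the choice.

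Animals for the study were caught in the wild near Woods Hole, and each library came from 100 to 200 whole embryos, pooled and extracted in Trizol. Poly(A) RNA was captured on Dynabeads and made into libraries with the ScriptSeq V2 kit, and 31 libraries covered each hour from 1 to 9 hpf, with 3, 4, 3, 3, 3, 4, 4, 5 and 2 libraries in that order. All embryos were untreated as far as the labels say, so hours are the only groups. The design text calls the libraries biological replicates without saying whether they came from separate spawnings, so p-values here measure only the spread between these libraries.

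An animal egg is stocked with messenger RNA by the mother, and the early embryo divides on that supply before its own genome takes over. Maternal messages are then removed in waves, usually by shortening of the poly(A) tail, removal of the cap and decay from the ends. In Drosophila the RNA-binding protein Smaug, itself of maternal origin, directs an early wave, and in zebrafish the microRNA miR-430, made by the embryo, directs a later one. Mnemiopsis is known for lacking recognised microRNAs, so the zebrafish route has no known counterpart in it.

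The records carry numbers and no gene names, and 0 of the 31067 were found in the RefSeq gene table at hand. No function, marker gene or pathway list could be applied to the members, and they are named by record number. Maternal origin was not measured: presence at 1 hpf does not separate RNA from the mother from RNA made in the first hour. Because the libraries hold poly(A) RNA of whole embryos, loss of an RNA, loss of its tail, fewer cells that hold it and growth of the other RNA in the pool cannot be told apart, and every level is a share of its library.

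Some libraries stand apart from others of their hour. Library totals ran from 17608264 to 116632427 counts, and the lowest count of any member was 7 in the 7 hpf library 2013_17 and between 25 and 1148 in the other libraries. In 2012 the 1 hpf column 2012_N7 was at or above the 9 hpf column 2012_37 in every record, and the 4 hpf column 2012_N4 was at or above the 5 hpf column 2012_14 in every record, so N7 and N4 were left out of the tests. The 3 hpf library listed here as 2013_23 has a different code in its title and its description. The 2 hpf library 2013_42 and the 7 hpf library 2012_N1 stood apart from others near their hour in the members' level. The 2 hpf library 2012_N6 did not, but earlier results over all records put it apart. The main tests that rest on any of these 3 are given with and without them, and other results keep them unless stated. The first digit or letter after the year (2013_1 to 2013_4, and 2012_1, 2012_2, 2012_3 and 2012_N) is called a code series below, and the labels do not say what it stands for.

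The members fell in part rather than to nothing. Their mean level at 6 and 7 hpf was a median of 0.346 times the 1 hpf mean (0.0999 to 0.496 across members), and at 8 and 9 hpf 0.412 times it (0.115 to 0.4999). Both means were under 0.25 times the 1 hpf mean in 9 of 200 members and under 0.1 times it in 0, and 3 members dropped under 1 CPM in any 2013 library of 6 to 9 hpf. The word cleared, used as a working label for these transcripts, thus goes further than the values. At the edge of the choice, the last member Mle_023612 averaged 44.4, 65.8, 17.8 and 22.2 CPM at 1, 4 and 5, 6 and 7, and 8 and 9 hpf, and the first record past the limit, Mle_030842, averaged 217.3, 196.6, 96.6 and 99.2 CPM.

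At 1 hpf the members were of middling abundance. Their mean was a median of 67.1 CPM (22.1 to 536), against 89.1 CPM for the other held transcripts. Per kilobase of record the order was the other way, with medians of 40.9 CPM per kilobase for the members and 35.7 for the others. Both 1 hpf libraries met the CPM limits by the rule but were not alike: 2013_21 was above 2013_41 in 176 of the 200 members. Their medians over the 1 hpf mean were 1.24 in 2013_21 and 0.764 in 2013_41. Those of the other held transcripts were 1.05 and 0.95, in the same direction.

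In the libraries of 2013 the members together made up 1.84% ± 0.669 (SD, n = 2) of all counts at 1 hpf. Their share was 1.56% ± 0.849 (SD, n = 3) at 2 hpf, where 2013_42 alone stood at 0.611%. It was 1.95% ± 0.307 (SD, n = 2) at 3 hpf and 1.80% ± 0.363 (SD, n = 2) at 4 hpf, and the single 5 hpf library held 2.00%. The share then fell to 0.610% ± 0.25 (SD, n = 2) in the 6 hpf libraries and was 0.617% ± 0.196 (SD, n = 3) in those of 7 hpf. It was 0.851% ± 0.0949 (SD, n = 3) in the 8 hpf libraries, and the single 9 hpf library held 0.331%. Every library of 6 to 9 hpf was therefore below every library of 1 to 5 hpf other than the 2 hpf library 2013_42. From 6 hpf on the direction depended on the scaling. By column totals the 8 and 9 hpf mean exceeded the 6 and 7 hpf mean in 154 of 200 members, with a median ratio of 1.15 (0.749 to 3.42). With edgeR's TMM factors it did so in 39 members (median ratio 0.808), and with RLE factors in 82 (0.944).

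**Figure D1:**
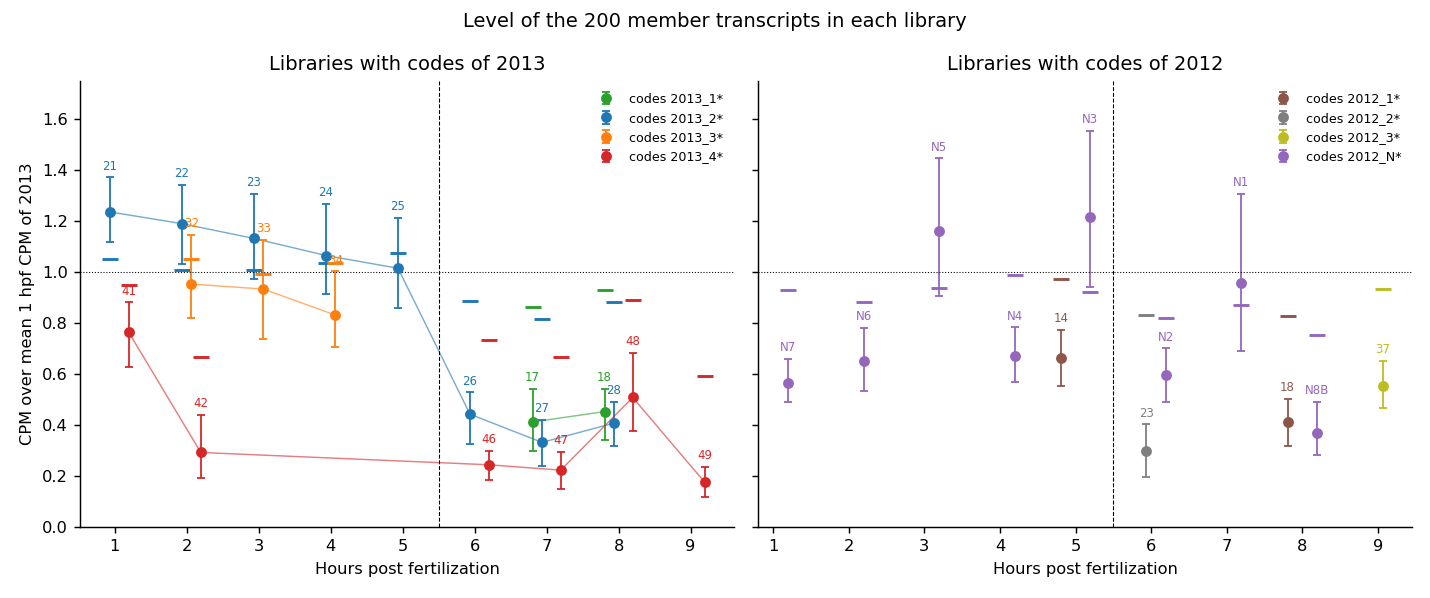
Level of the 200 members in each library as a multiple of their 1 hpf mean in 2013, against hours post fertilization, with libraries of 2013 on the left and of 2012 on the right. Points are medians over members, bars span the quartiles, dashes are medians of the other held transcripts and colours are code series; after the dashed line at 5.5 hpf the 2013 medians lie between 0.175 and 0.508.

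Series 2012_N and 2013_2 each have a library at every hour from 1 to 8 hpf. In 2012_N, with the overlapping columns 2012_N7 and 2012_N4 included, the members' medians did not fall in 1 step. They were 0.565, 0.652, 1.16, 0.669, 1.22, 0.595, 0.955 and 0.370 times the 2013 1 hpf mean, in order of hour. In code series 2013_2 most of the fall came between 5 and 6 hpf. The members' median stood at 1.24, 1.19, 1.13, 1.07 and 1.02 times the 1 hpf mean in 2013_21 to 2013_25, then at 0.442, 0.331 and 0.407 in 2013_26, 2013_27 and 2013_28. The first 5 libraries lie close together and the last 3 lie well under them. Between 5 and 6 hpf the median log2 change was -1.30, with 198 of 200 members lower and 139 at or below 0.5 times their 5 hpf level. For the other held transcripts the same step had a median of -0.29, and 424 of 3226 reached 0.5 times or less. Both libraries of this step took part in choosing the members, so their larger fall follows in part from the choice. Between 6 and 7 hpf 194 of 200 members were lower again, with a median log2 change of -0.37 against -0.10 for the other held transcripts. Between 7 and 8 hpf the members' median was 0.31, with 34 of 200 lower, and that of the other held transcripts was 0.11.

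Code series 2013_3 covers 2 to 4 hpf only. Its libraries had medians of 0.953, 0.933 and 0.831 times the 1 hpf mean at 2, 3 and 4 hpf, with 1, 6 and 6 of 200 members at or below 0.5. Series 2013_1 covers 7 and 8 hpf, where the medians were 0.412 and 0.452, close to those of series 2013_2 at the same hours. Across all series, every 2013 library of 3 to 5 hpf was above every one of 6 to 9 hpf in 139 members. Apart from those of 3 hpf, these libraries chose the members, so this count is a description. The share over other records was not counted.

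Code series 2013_4 did not show the same timing. Its median was 0.764 times the 1 hpf mean in 2013_41 (1 hpf) and already 0.292 in 2013_42 (2 hpf). Its later libraries 2013_46, 2013_47, 2013_48 and 2013_49, named for hours 6, 7, 8 and 9, stood at 0.244, 0.222, 0.508 and 0.175. The step from 1 to 2 hpf (2013_41 to 2013_42) had a median log2 change of -1.29, with 197 of 200 members lower, and the other held transcripts changed by -0.50. The 8 hpf library was above the 7 hpf one in 194 of 200 members, with a median log2 change of 1.17. At 9 hpf 198 of 200 then were lower (-1.58). The other held transcripts moved the same way, by medians of 0.42 and -0.57. This series has no library of 3 to 5 hpf, so holding up to 4 hpf rests on series 2013_2 and 2013_3, and the 5 hpf value on the single library 2013_25.

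The 2 hpf library 2013_42 took no part in the choice, so its values could be compared with the other libraries of its hour. It was below every 2013 library of 1, 3, 4 and 5 hpf in 186 of 200 members, and within the range of the 9 libraries of 6 to 9 hpf in 156. Apart from those of 3 hpf, the libraries it was set against chose the members, so both counts depend on the choice. They were not counted over other records. Over the 4697 records at 20 to 1000 CPM, the median in 2013_42 was 0.649 times the 1 hpf mean. Against the mean of 2013_22 and 2013_32, the members' median log2 difference was -1.84 (quartiles -2.73 and -1.24), with 197 of 200 lower. The other held transcripts had a median of -0.64 (quartiles -1.40 and 0.08), with 2335 of 3226 lower. At or below 0.5 times both other 2 hpf libraries were 148 of 200 members (74%), where 34% of the 4697 records at 20 to 1000 CPM were. With 1 library no test applies to this difference.

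Over the 5 libraries of 2 and 3 hpf in 2013 the members' median level was 0.924 times the 1 hpf mean, with an SD between libraries of 0.358 and a range of 0.292 to 1.19. In edgeR's quasi-likelihood test of 3 against 2 hpf (2 against 3 libraries), 0 of 11708 records were lower with an adjusted p under 0.05, which is 0% of those tested, and 0% were lower at an unadjusted p under 0.05. DESeq2 called 0 as well, and 3 records of all passed an unadjusted p under 0.05 in edgeR, in either direction. The members' median log2 fold change was 0.18, against 0.13 over all records tested, and without 2013_42 it was -0.03. With 2 and 3 libraries, 1 of which lies far below the rest, a small change between these hours was not detectable.

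Mle_028632, a record of 1279 bases, kept the least of its 1 hpf level in the libraries of 2013. It stood at 181 and 61.4 CPM in the 1 hpf libraries, at 202, 98.2 and 11.5 CPM in those of 2 hpf and at 225 and 77.7 CPM in those of 3 hpf. The 4 hpf libraries held 207 and 59.3 CPM and the 5 hpf library 139 CPM. It was then at 26.4 and 5.65 CPM (6 hpf), 23.7, 19.5 and 4.29 CPM (7 hpf), 21.98, 16.1 and 16.0 CPM (8 hpf) and 1.72 CPM (9 hpf). The values from 6 hpf on all lie under those of 1, 3, 4 and 5 hpf, and the low value at 2 hpf is that of 2013_42. The lowest values at 6 and 7 hpf belong to code series 2013_4.

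The next lowest, Mle_011452 (2829 bases), was steadier before the fall. In 2013 it held 154 and 91.1 CPM in the 1 hpf libraries, 134, 103 and 71.1 CPM in those of 2 hpf and 132 and 127 CPM in those of 3 hpf. The 4 hpf libraries held 133 and 119 CPM and the 5 hpf library 124 CPM. From 6 to 9 hpf its values ran from 6.55 to 33 CPM, so no later library reached any earlier one, 2013_42 included.

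The most abundant member was Mle_018117 (1336 bases), with 707 and 366 CPM at 1 hpf in 2013 and 1268 CPM in the 5 hpf library. It dropped to 128 and 89.1 CPM at 6 hpf and stood at 171, 109 and 147 CPM at 7 hpf. At 8 hpf it was at 306, 268 and 328 CPM, by column totals all above its 6 and 7 hpf values, and at 9 hpf it was at 110 CPM.

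Mle_011987 (548 bases, the shortest member) and Mle_028192 (674 bases) had the highest ratios of the 8 and 9 hpf mean to the 6 and 7 hpf mean. In 2013 Mle_011987 stood at 6.25, 11.4 and 54.1 CPM at 8 hpf and at 10.4 CPM at 9 hpf. Mle_028192 stood at 10.4, 5.16 and 29.8 CPM at 8 hpf and at 4.32 CPM at 9 hpf. In each case the highest of these is the 8 hpf library 2013_48, so these ratios rest on that library.

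In 2013_42 the members ran from 0.0113 to 1.03 times their 1 hpf mean. Mle_019602 (1036 bases) was at 1.35 CPM there against 137 and 114 CPM in the other 2 hpf libraries. It was also low in the later libraries of that code series, at 3.25, 1.99, 5.14 and 0.921 CPM at 6, 7, 8 and 9 hpf, while the other later libraries of 2013 held 44.0 to 94.1 CPM. Mle_014514 (1797 bases) was at 137 CPM in 2013_42, above the 120 and 77.6 CPM of the other 2 hpf libraries. Mle_020665 (6244 bases, the longest member) was at 33.2 CPM there, beside 37.6 and 33.4 CPM.

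**Figure D2:**
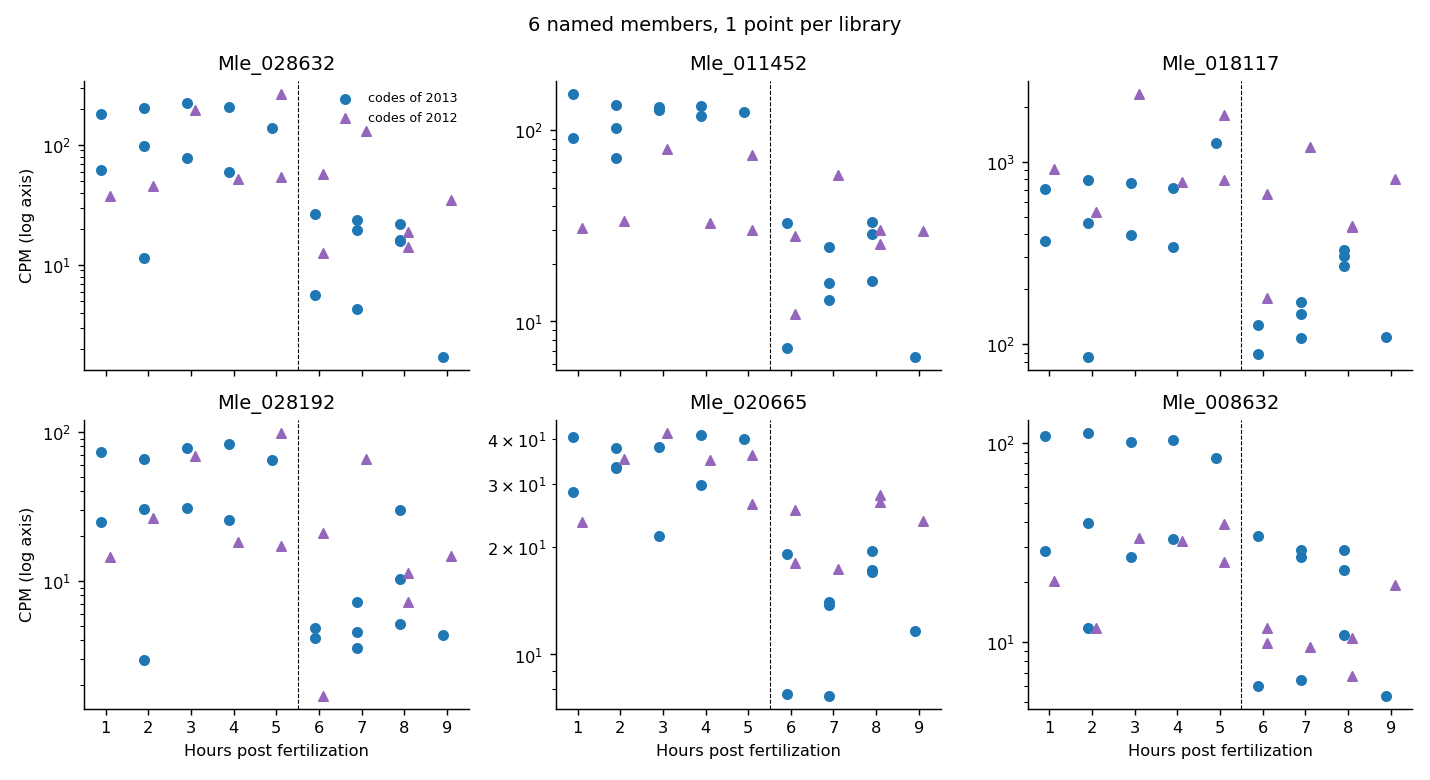
CPM on a log axis against hours post fertilization for 6 named members, with 1 point per library, circles for codes of 2013 and triangles for codes of 2012. In Mle_011452 the 2013 libraries of 6 to 9 hpf lie between 6.55 and 33 CPM, under every earlier 2013 library; in Mle_028632 the 2012 triangle at 7 hpf stands at 130 CPM.

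The libraries of 2012 served to ask whether the members were also lower late in libraries that had no part in choosing them. The 4 libraries of 2, 3 and 5 hpf left once 2012_N7 and 2012_N4 were dropped were set against 6 libraries of 6 to 9 hpf. Nearly all members lay on the lower side: 199 of 200 had a negative log2 fold change, with a median of -1.02 (quartiles -1.21 and -0.85). The median was -0.41 for the other held transcripts and 0.40 over all 21229 records tested.

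None of these differences passed the test. In edgeR's quasi-likelihood test with Benjamini-Hochberg adjustment, 0 of 21229 records were lower at an adjusted p under 0.05 (0%), the smallest adjusted p of any member being 0.484. At an unadjusted p under 0.05, 1221 records were lower (5.75%), among them 99 members (49.5%). Without the 3 hpf library 2012_N5 that count was 25 members among 284 of 22826 records. It was 38 among 436 of 22814 without the 5 hpf library 2012_N3. It was 58 among 896 of 21047 without 2012_23 and 50 among 504 of 20152 without 2012_18. Without 2012_N8B it was 55 among 612 of 19643. DESeq2 called 17 records lower (0.0801%), of which 1 was a member. Taking every 2012 library as labelled, the difference is thus not larger than the spread between these libraries by the test used.

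The number of calls changed when the 2 hpf library 2012_N6 and the 7 hpf library 2012_N1 were left out. The members' median level was 0.652 times the 2013 1 hpf mean in 2012_N6, near the 0.663 of 2012_14 and under the 1.16 and 1.22 of 2012_N5 and 2012_N3. It was 0.955 in 2012_N1, the highest of the late libraries. Member by member, 2012_N1 was at or above the lowest of the 4 early libraries in 180 of 200. The share over other records was not counted, so this count does not set the members apart. Without 2012_N6, 622 of 21600 records were lower at an adjusted p under 0.05 in edgeR (2.88%), 67 members among them (33.5%), and the median over all records tested moved from 0.40 to 1.29. Without both, 3670 of 21610 were lower (17%), 192 members among them (96%), with a member median of -1.58. Leaving out 2012_N1 alone gave 0 calls, with 195 members among 3743 of 21341 records lower at an unadjusted p under 0.05 in edgeR. Both libraries were doubted from earlier results of these same data, so the larger counts describe the remaining libraries and are not independent support.

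Level by level the groups overlapped for most members. The 6 libraries of 6 to 9 hpf were all below the 4 of 2, 3 and 5 hpf in 6 of 200 members (3%), against 0.862% of the records tested. Leaving out the 7 hpf library, they were all below in 62 members (31%), against 3.64% of the records tested.

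**Figure D3:**
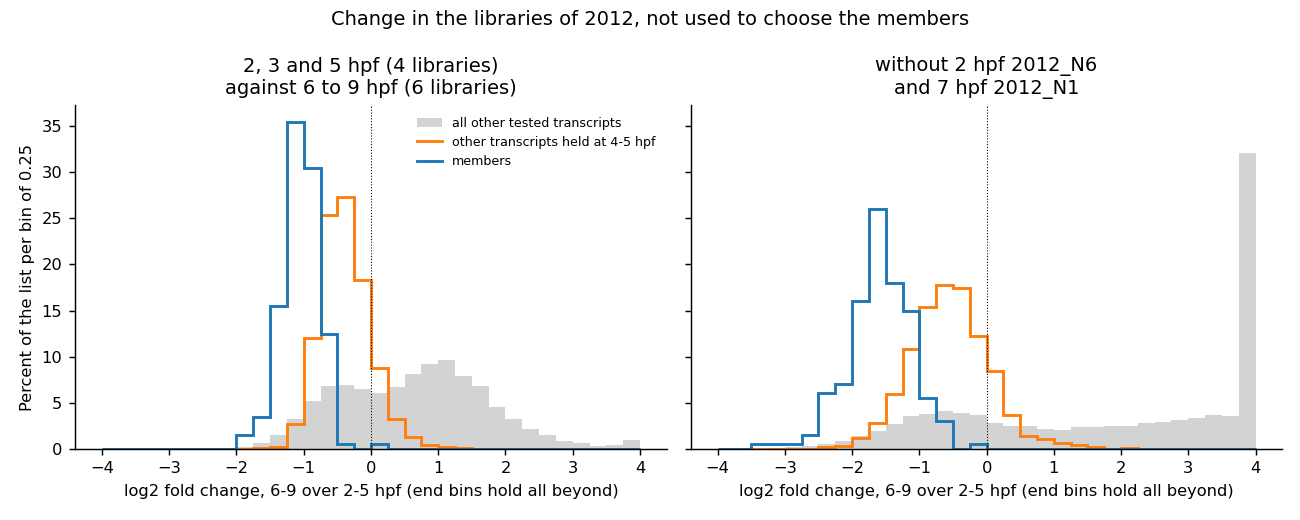
Percent of each list per bin of log2 fold change, 6 to 9 hpf over 2, 3 and 5 hpf in the libraries of 2012, with all 10 libraries on the left and without 2012_N6 and 2012_N1 on the right. The members centre on -1.02 on the left and -1.58 on the right, under the other held transcripts in both panels.

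The members with the smallest p here were Mle_008632 and Mle_011718. Mle_011718 (2936 bases) stood at 61.6 CPM at 2 hpf, 74.9 CPM at 3 hpf and 66.6 and 60.2 CPM at 5 hpf. The later libraries held 33.5 and 42.8 CPM (6 hpf), 43.7 CPM (7 hpf), 35.9 and 40.4 CPM (8 hpf) and 52.2 CPM (9 hpf). All 6 late values are below all 4 early ones; the log2 fold change was -0.96 (SE 0.25), with an adjusted p of 0.484 in edgeR and 0.00463 without 2012_N6 and 2012_N1.

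Mle_008632 (3023 bases) stood at 11.8 CPM in 2012_N6 and at 33.5, 39.0 and 25.3 CPM at 3 and 5 hpf, then between 6.77 and 19.4 CPM at 6 to 9 hpf. Without 2012_N6 the late values would all lie under the early ones, and the log2 fold change was -1.64 (SE 0.43), with an adjusted p of 0.484 in edgeR and 0.00435 without the same 2 libraries. Mle_028632, the deepest faller of 2013, was at 45.8, 195, 53.6 and 265 CPM in the early libraries of 2012 and at 12.5, 57.1, 130, 18.9, 14.2 and 35.0 CPM in the late ones. Its highest late value is 2012_N1, and its log2 fold change was -1.84 (SE 0.81), with an adjusted p of 0.484 in edgeR. The single member on the higher side was Mle_026786 (1232 bases), with a log2 fold change of 0.04 and an adjusted p of 0.944 in edgeR.

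The step from 5 to 6 hpf, where series 2013_2 fell, could be tested in 2012 with 2 libraries at each hour. The members again lay lower, with 198 of 200 negative and a median log2 fold change of -1.42, against -0.51 for the other held transcripts and 0.25 over all 17354 records tested. Both 6 hpf libraries were below both 5 hpf libraries in 131 of 200 members (65.5%), against 15.2% of the records tested. Within code series 2012_N, on CPM, 196 of 200 were lower at 6 than at 5 hpf (median log2 change -1.04). Between 2012_14 and 2012_23 it was 197 of 200 (-1.21). For the other held transcripts these medians were -0.19 and -0.23.

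In edgeR's quasi-likelihood test 0 of 17354 records were lower at an adjusted p under 0.05 (0%), and 717 were at an unadjusted p under 0.05 (4.13%), 106 members among them (53%). By column totals that count was 5 members among 38 of 17354 records. Leaving out a library leaves 1 at its hour, so the members' median log2 fold change is the value compared between those fits. That median was -1.04 without 2012_N3 and -1.79 without 2012_14, the libraries of 5 hpf. It was -1.08 without 2012_23 and -1.89 without 2012_N2, the libraries of 6 hpf. Of those fits, the one without 2012_N2 called the most members lower. Its calls, given below, rest on 1 library at 6 hpf, so no conclusion is drawn from them. DESeq2 called 81 records lower (0.467%) with 7 members (3.5%), and edgeR without the filter on low counts called 202 (0.673%) with 33 members (16.5%). Without the 6 hpf library 2012_N2, edgeR called 832 lower (4.69%) with 72 members (36%), the single remaining 6 hpf library being assumed to vary like those of 5 hpf. Mle_010116 (1828 bases) was at 89.1 and 106.8 CPM at 5 hpf and 19.3 and 45.5 CPM at 6 hpf, a log2 fold change of -1.95 (SE 0.52) with an adjusted p of 0.110 in edgeR.

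After 6 hpf the 2012 libraries did not fall further in order. The members' medians were 0.298 and 0.595 times the 2013 1 hpf mean in the 6 hpf libraries and 0.955 in the 7 hpf library. The 8 hpf libraries stood at 0.413 and 0.370 and the 9 hpf library at 0.554. In code series 2012_N, 7 hpf was lower than 6 hpf in 19 of 200 members (median log2 change 0.72). In the same series 8 hpf was lower than 7 hpf in 195 (-1.36). For the other held transcripts these medians were 0.11 and -0.19. The early 2012 libraries were uneven too, with 1.16 and 1.22 in 2012_N5 and 2012_N3 beside 0.652 in 2012_N6 and 0.663 in 2012_14.

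How far a member fell in 2013 went with how far it lay down in 2012. With the 200 members ordered by depth in 2013 and divided into 4 groups of 50, the median later level was 0.272, 0.357, 0.401 and 0.438 times the 1 hpf mean. Their median log2 fold changes in 2012 were -1.25, -1.10, -0.97 and -0.85, in the same order. Across members, Spearman's rho between the later level in 2013 and the 2012 log2 fold change was 0.603 (n = 200), and across all 3426 held transcripts 0.797. These are descriptions across transcripts, which share the same libraries and so are not independent. The 2012 fold changes used here include 2012_N6 and 2012_N1.

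The members were shorter than the other held transcripts. Their records had a median length of 1695 bases (548 to 6244), against 2568 bases for the other held transcripts and 1078 bases for all records. Ordered by length into 4 equal groups, the held transcripts held 108 members in the shortest group (12.6%), 48 in the next (5.61%), 33 in the next (3.86%) and 11 in the longest (1.28%). The other held transcripts also kept less of their level late when short, with medians of 0.764, 0.806, 0.868 and 0.948 times the 1 hpf mean from the shortest group to the longest.

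Length went with the library as well. In each library the median level of the shortest group of the 4697 abundant records (312 to 1688 bases) was set over that of the longest (3516 to 19808 bases), both relative to 1 hpf in 2013. This ratio was 1.05 and 0.949 in 2013_21 and 2013_41, 0.704 in 2013_25, 0.577 in 2013_26 and 0.591 in 2013_42. It was 1.39 in 2012_N3, 0.422 in the 6 hpf library 2012_23 and 1.67 in 2012_N1, the last being the late library in which the members stood highest. Within each length group, the members were still lower than the others in 2012, with 2012_N6 and 2012_N1 included. Their median log2 fold changes were -1.05, -1.02, -1.001 and -0.98 from short to long, against -0.55, -0.47, -0.37 and -0.30.

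**Figure D4:**
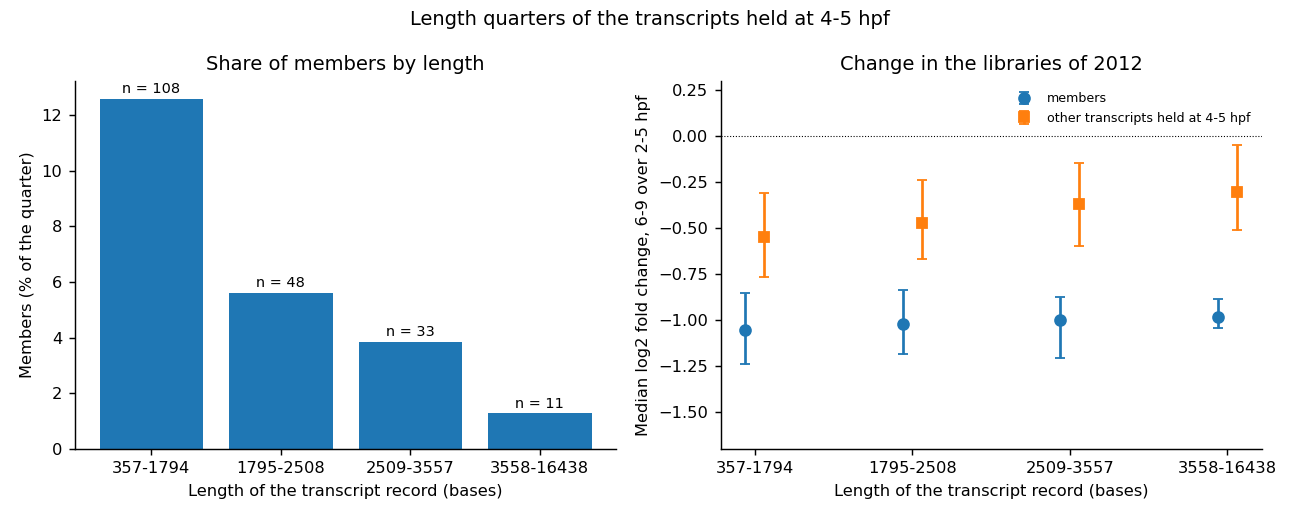
Members as a percent of the held transcripts in 4 length groups (left, bars with the number of members above them), and the median log2 fold change with quartiles in the libraries of 2012 (right). The share runs from 12.6% in the shortest group to 1.28% in the longest, while the members' median stays between -1.05 and -0.98 in all 4.

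Scaling the 2013 libraries in other ways moved single libraries. The members' median was lower in 2013_26 (6 hpf) than in 2013_25 (5 hpf) in each scaling. Both libraries took part in choosing the members by column totals, so this is a description and not a separate test of the fall. When the choice itself was repeated, 132 of the members were kept with TMM factors and 113 with RLE factors. With edgeR's TMM factors the members' median was 0.812 times the 1 hpf mean in 2013_25, 0.404 in 2013_26, 0.271 in 2013_48 and 0.132 in 2013_49. With RLE factors (the median-ratio factors of DESeq2) the medians of 6 to 9 hpf ran from 0.244 to 0.486. The library 2013_42 rose from 0.292 by column totals to 0.416 by TMM and 0.585 by RLE factors. The size of the rise at 8 hpf in series 2013_4 depended on scaling. From 2013_47 to 2013_48 the median went from 0.222 to 0.508 by column totals. With TMM factors it went from 0.224 to 0.271, and with RLE factors from 0.314 to 0.422. The TMM factor of 2013_48 was 1.69.

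**Figure D5:**
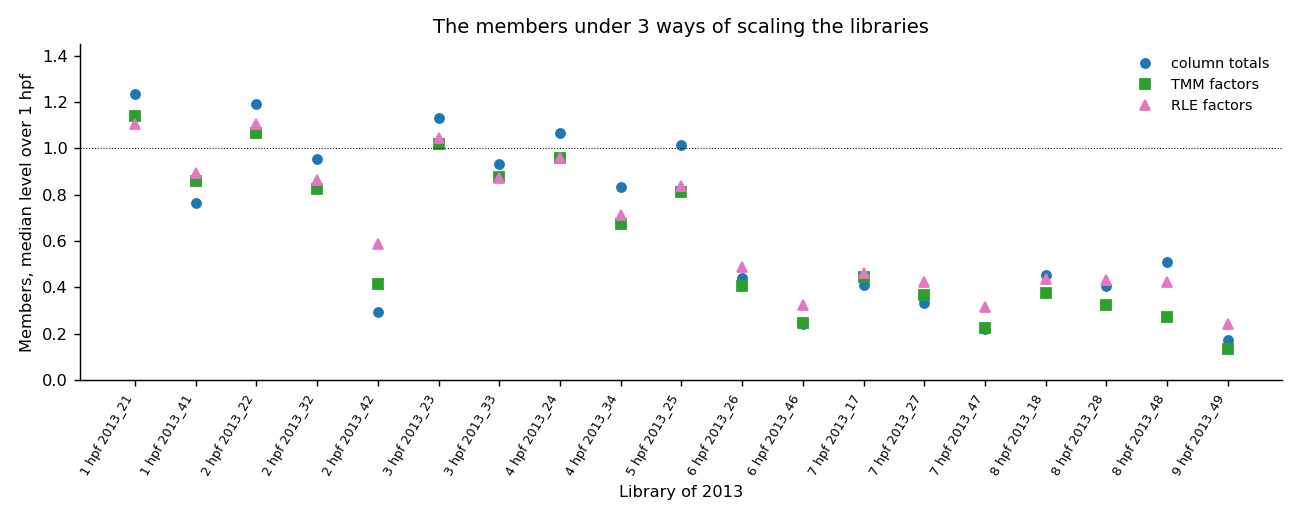
Members' median level over their 1 hpf mean in each library of 2013, ordered by hour, under column totals (circles), TMM factors (squares) and RLE factors (triangles). The libraries of 6 to 9 hpf lie at or under 0.508 in all 3 scalings, and 2013_42 at 2 hpf moves from 0.292 to 0.585.

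The ratio of the members' median to that of the other held transcripts in the same library cancels that library's own scaling; it was added after the data were seen. By column totals it lay between 0.804 and 1.18 in the 2013 libraries of 1 to 5 hpf other than 2013_42 (0.439) and between 0.295 and 0.571 in those of 6 to 9 hpf. With TMM or RLE factors, which change the weight of the 1 hpf libraries, the later libraries lay between 0.298 and 0.574. By column totals the ratio dropped from 0.944 in 2013_25 to 0.498 in 2013_26. Both libraries took part in choosing the members, as did the others of 6 to 9 hpf in 2013. The other held transcripts are the records left after that choice. The lower ratios from 6 hpf on in 2013 thus follow in part from the choice and are a description. In 2012 the ratio was 1.24 and 1.32 in 2012_N5 and 2012_N3, 0.738 in 2012_N6 and 0.681 in 2012_14. Of the later 2012 libraries, 2012_N1 stood at 1.10 and the other 5 at 0.358 to 0.724, so 2012_N2 (0.724) lay above the early library 2012_14.

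A selection in code series 2013_2 alone left series 2013_4 as an unused set of libraries within the same year. Applied to 2013_21 and 2013_24 to 2013_28, the same limits found 802 records, 124 of the 200 members among them. These records were already at a median of 0.501 times their 2013_21 level in the other 1 hpf library, 2013_41, where the 3789 others that held their level were at 0.917. Relative to 2013_41, they were at 0.386 in 2013_42, 0.476 in 2013_46, 0.434 in 2013_47, 1.31 in 2013_48 and 0.396 in 2013_49. The 3789 others were at 0.733, 0.845, 0.784, 0.941 and 0.696 in those libraries, so the selected records lay lower in 4 of the 5, 2 hpf included, and higher in the 8 hpf library.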

How the data were processed

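Whole-embryo poly(A) RNA-seq was analysed in 31 libraries. The authors deposited whole-number read counts per transcript record in 1 table for the series; Bowtie2 and SAMtools are named in the submitters' processing notes, with reference and counting step not given in the sources used here. A deposited table of RPKM values was not used. CPM was computed by column total. The tests, named in the report, used edgeR 4.0.16 (quasi-likelihood, TMM, filterByExpr, Benjamini-Hochberg over all records tested, threshold 0.05) and DESeq2 1.42.0 in R 4.3.3, and were tested on simulated data. Standard errors are the log2 fold change over the square root of its F statistic. The members and lists were chosen with earlier results of these data known. Named members are those at the extremes of depth, 1 hpf level, 8 and 9 over 6 and 7 hpf and 2013_42, at the edge of the selection, and with the smallest p in each test; where one result allowed several, a part is given. Alternatives covered scaling, filter, tool, limits of the selection, overlapping columns, a code series block and each library left out.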

Additional observations from a re-analysis of the deposited data

Results flagged for a closer look

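Of 92 groups of 4 or 5 libraries of 1 hour, over 23 quantities, 12 held a library far from the rest by Dixon's test at the 95% level. None of the 12 was in the members' median level, share of counts or ratio to the other held transcripts. In those quantities 2013_42 and 2012_N1 were thus not flagged. Chance gives about 1 in 20 for values not chosen beforehand, which does not apply here: the records were chosen as extremes and for low 2013 values from 6 hpf on, which favours a lone high library at these hours. At 7 hpf the library 2012_N1 stood alone in 6 members. Its value was 129.8 CPM in Mle_028632 (others 4.29 to 23.7), 1195 CPM in Mle_018117 (others 109 to 171) and 33.01 CPM in Mle_011987 (others 3.92 to 8.66). It was 65.6 CPM in Mle_028192 (others 3.58 to 7.25), 27.2 CPM in Mle_026786 (others 7.31 to 8.92) and 138.3 CPM in Mle_031052 (others 23.8 to 37.5). At 6 hpf the library 2012_N2 stood alone at 664.6 CPM in Mle_018117 (others 89.1 to 179) and at 20.96 CPM in Mle_028192 (others 1.70 to 4.84). At 8 hpf the library 2013_48 stood alone at 54.1 CPM in Mle_011987 (others 6.25 to 19.8) and at 29.8 CPM in Mle_028192 (others 5.16 to 11.3). The same hour held 77.7 CPM in 2013_18 for Mle_014514 (others 53.2 to 59.9) and 75.9 CPM in 2013_28 for Mle_022275 (others 21.5 to 34.5).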

How the results depend on the processing

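The number of records that met the limits before the ceiling of 200 was 240. It lay between 211 and 320 under 12 alternatives and moved by more than 1.5 times under 10. It was 386 with TMM factors (132 members kept) and 121 with RLE factors (113 kept), 76 and 554 with a fall to at most 0.4 or 0.6, 381 with no limit at 4 and 5 hpf and 802 in series 2013_2 alone. Leaving out each of the 14 libraries gave 99 (without 2013_21, 61 members kept) to 684 (without 2013_41, 138 kept); it was 403 without 2013_48 and 128 without 2013_49. In the 2012 test of 6 to 9 hpf the count of members lower, 0, became 1 with DESeq2 and 192 without 2012_N6 and 2012_N1, and ran from 0 to 67 with each library left out. For 6 against 5 hpf the count, 0, became 33 without the filter and 7 with DESeq2, and ran from 0 to 72 with each library left out. In 3 against 2 hpf it was 0 under every alternative tried, though 28 other records were called lower without the filter, and the level at 2 and 3 hpf stayed between 0.841 and 1.06. Fold changes of named members passed the threshold under an alternative in 25 cases in the first of these tests and in 16 in the second. With 8 and 9 hpf alone as the late group the members' median was -1.51, with the overlapping columns kept -0.75 and after their subtraction -0.80, all with 0 calls. By column totals in place of TMM factors the median of all records moved from 0.40 to 0.56. That of the members moved from -1.02 to -0.78. For 6 against 5 hpf they moved from 0.25 to 0.56 and from -1.42 to -1.06. There 5 members among 38 records were lower at an unadjusted p under 0.05 in edgeR, instead of 106 among 717. Hours share no replicate numbers in the labels, only code series of unstated meaning. With the code series as a block, added after the data were seen, the count of members lower stayed at 0 for 6 to 9 hpf. The median was -0.89 there, with 31 members among 395 of 21229 records lower at an unadjusted p under 0.05 in edgeR. For 3 against 2 hpf the count stayed at 0 (median -0.03). For 6 against 5 hpf the block left 0 residual degrees of freedom, so no test. The limits are the single library of 5 hpf in 2013, the 2 libraries of 1 hpf that set every ratio, and the absence of an amount per embryo; comparisons of 2 hours rest on 1 to 5 libraries.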

Other observations

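The overlapping columns of 2012 held further counts once the smaller was subtracted from the larger. The 1 hpf column less the 9 hpf column left 13782249 counts, 16.3% of the larger, in which the members' median level was 0.616 times the 2013 1 hpf mean and 52 of 200 were at or below 0.5. The 4 hpf column less the 5 hpf column left 36388510 counts, 31.2% of the larger, with a median of 0.650 and 40 members at or below 0.5. No record was below 0 in either subtraction. Deeper falling members had shorter records: from the deepest group of 50 to the shallowest, median length was 1451, 1668, 1686 and 2140 bases.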
